A study of Mus musculus with 8 samples.

Results

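The genes described here are 10 members of the AP-1 and EGR immediate early group, taken by name from the 17488 genes of a table of whole-tumour RNA sequencing. They are the Fos family genes Fos, Fosb and Fosl2, the Jun family genes Jun, Junb and Jund, the zinc finger genes Egr1 and Egr2, the AP-1-related gene Atf3, and Arc. All 10 were listed. The tumours came from homozygous TH-MYCN mice, in which the tyrosine hydroxylase promoter directs human MYCN to cells of the sympathoadrenal lineage and neuroblastomas arise. Treatment with panobinostat, an inhibitor of the zinc-dependent histone deacetylases, was given as 2 doses of 5 mg/kg, 24 h apart (n = 4 animals), and 4 animals received vehicle. Every animal, vehicle controls included, carried the transgene, was about 6 weeks old and had a tumour of 200 to 300 mm3 at the start. Vehicle was given on the same schedule, and tumours of both groups were taken 4 h after the second dose. A library represents the whole tumour of 1 animal, with tumour cells and stroma. The comparison asks which transcripts differ in these tumours after about a day of deacetylase inhibition.

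AP-1 is a dimer of basic leucine zipper proteins. Jun proteins pair with each other or with Fos proteins, whereas Fos proteins need a Jun partner, and Atf3 pairs with Jun proteins as well. EGR proteins are zinc finger activators whose NAB co-repressors are themselves EGR target genes. Immediate early genes are transcribed within minutes of a growth factor, a stress or, in neurons, synaptic activity, through kinases that act on serum response factor with its ELK partners and on CREB, and their transcripts are short-lived. In the sympathoadrenal lineage the group is known from rat PC12 phaeochromocytoma cells, where nerve growth factor induces Fos and Egr1.

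RefSeq promoter windows on GRCm38.p6 were found for 8 of the 10 genes, and Arc and Egr1 had none in the table. The 250 bases before the start of 5 of them are printed here because their genes moved differently: Fos, Fosb, Atf3 and Egr2 were higher with panobinostat and Jund was lower. The windows are chr12:85473640-85473889 on the plus strand for Fos, chr7:19310046-19310295 on the minus strand for Fosb, chr1:191183334-191183583 on the minus strand for Atf3, chr10:67537619-67537868 on the plus strand for Egr2, and chr8:70697489-70697738 on the plus strand for Jund. The RefSeq start of Jund lies upstream of the gene start given below, so its window does not adjoin the gene as annotated there, and those of Atf3 and Egr2 lie within the annotated genes. Capitals mark matches, on either strand, to the CRE core TGACGT, the EGR site GCGGGGGCG or GCGTGGGCG, the TATA element TATAAA, or the CArG box, the core of the serum response element.
Fos: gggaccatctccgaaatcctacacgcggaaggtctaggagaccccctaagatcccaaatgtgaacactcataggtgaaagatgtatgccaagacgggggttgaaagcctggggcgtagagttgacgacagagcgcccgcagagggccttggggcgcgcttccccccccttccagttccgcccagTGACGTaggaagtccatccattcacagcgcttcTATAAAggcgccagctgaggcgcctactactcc
Fosb: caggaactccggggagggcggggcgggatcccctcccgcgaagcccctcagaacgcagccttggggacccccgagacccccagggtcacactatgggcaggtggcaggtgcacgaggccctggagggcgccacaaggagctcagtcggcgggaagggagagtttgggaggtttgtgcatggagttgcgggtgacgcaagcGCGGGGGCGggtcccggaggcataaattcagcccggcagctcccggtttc
Atf3: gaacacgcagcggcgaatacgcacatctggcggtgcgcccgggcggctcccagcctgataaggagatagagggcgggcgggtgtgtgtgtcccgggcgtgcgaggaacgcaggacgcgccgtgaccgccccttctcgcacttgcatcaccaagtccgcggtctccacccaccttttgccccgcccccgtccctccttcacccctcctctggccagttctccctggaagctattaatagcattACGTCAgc
Egr2: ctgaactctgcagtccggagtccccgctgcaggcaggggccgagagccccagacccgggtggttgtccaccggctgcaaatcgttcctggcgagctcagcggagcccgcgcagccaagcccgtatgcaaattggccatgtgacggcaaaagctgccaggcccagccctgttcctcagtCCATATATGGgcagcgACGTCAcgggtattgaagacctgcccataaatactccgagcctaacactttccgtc
Jund: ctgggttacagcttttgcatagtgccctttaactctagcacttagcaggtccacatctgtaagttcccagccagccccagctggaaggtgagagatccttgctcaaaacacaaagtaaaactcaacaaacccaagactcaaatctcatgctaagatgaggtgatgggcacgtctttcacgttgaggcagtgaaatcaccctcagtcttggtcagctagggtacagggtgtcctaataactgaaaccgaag
The CRE core lay in a window of Fos, Atf3 and Egr2, 3 of the 8 genes, and in 6.47% of all 32851 windows. The count is by gene and the share by window. The 8 genes have 12 windows, and of the 5 of Egr2, 3 that overlap held the core. The core was added to the search after the sequences were seen. The EGR site lay in the windows of Fosb and Fosl2 (3.06% of all windows), the TATA element in that of Fos (12.4%). The CArG box CCATATATGG lay before 3 of 5 annotated Egr2 starts and CCTTTTTTGG before 1 more (1.47% of all windows hold a CArG box). No window of the 8 held the full CRE TGACGTCA (1.55% of all windows) or the AP-1 site TGANTCA (6.75%), and Jun, Junb and Jund held no match to any of these motifs. A match describes letters in this window and nothing about binding.

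Most of these genes were higher after panobinostat. Of the 10, 8 rose, Jund fell and Jun made no call, at a Benjamini-Hochberg adjusted p under 0.05 over all 16157 genes tested (limma). Among all tested genes 31.2% rose and 32.4% fell, 63.7% in all, so a call in either direction was common in this comparison. The median log2 change of the 10 genes was 1.75, and that of all tested genes was -0.022. All 8 that rose were at least 2-fold higher. The smallest of these changes, that of Fosl2, was larger than the changes of 78.2% of tested genes, and that of Arc, the largest on the deposited scale, was larger than 97.4%. For 7 genes every panobinostat tumour was above every vehicle tumour, which held for 28.5% of all tested genes, and for Jund every panobinostat tumour was below, as for 31.2% (59.7% in either direction). Arc passed the filter of 1 CPM, counts scaled to a library of standard size, in 4 libraries only through the panobinostat tumours. Without it the counts were 7 higher and 1 lower of 9.

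**Figure D1:**
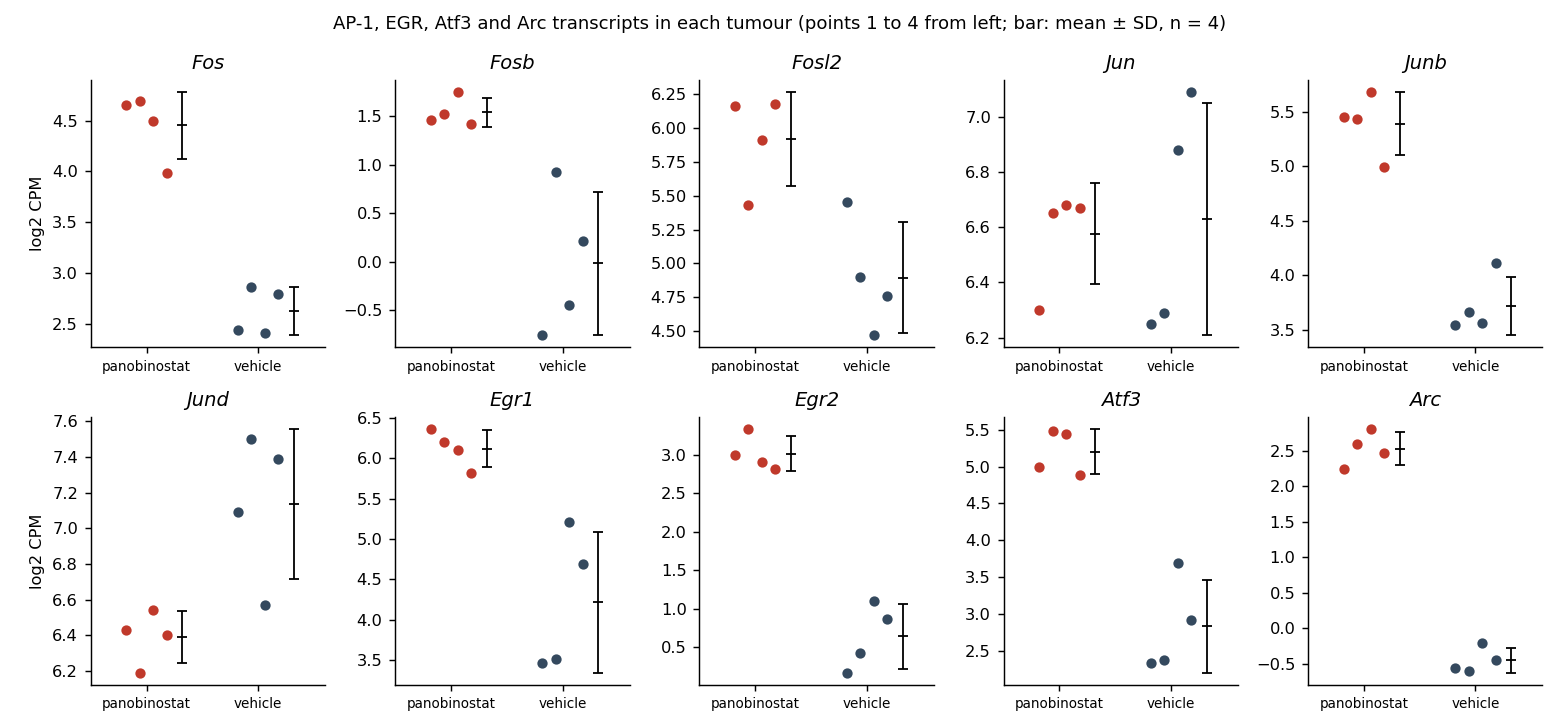
Log2 CPM of the 10 genes in each tumour, panobinostat left and vehicle right, with each panel on its own scale; points are tumours 1 to 4 from left to right, and bars are mean ± SD (n = 4). Panobinostat and vehicle points do not overlap for 8 genes, with Jund the one that is lower, and overlap for Fosl2 and Jun.

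Of the Fos family, Fos encodes the founding partner of Jun in AP-1. It is a gene of chromosome 12 (85473890 to 85477273, mm10, plus strand). Fos had 25.1, 25.9, 22.6 and 15.8 CPM in panobinostat tumours 1 to 4, against 5.41, 7.28, 5.30 and 6.92 CPM in vehicle tumours 1 to 4. Even the lowest panobinostat tumour, number 4, was above all vehicle tumours. On the log2 scale Fos averaged 4.46 ± 0.33 with panobinostat and 2.62 ± 0.24 with vehicle (mean ± SD, n = 4 each), a change of 1.83 (SE 0.20, adjusted p = 6.14e-05, limma). Fosb, on chromosome 7, encodes a close relative of Fos that also exists as a truncated, stable splice form, which gene-level values do not resolve. It was the lowest of the family, with 61, 55, 70 and 52 reads in panobinostat tumours, against 13, 38, 16 and 24 reads in vehicle tumours. The groups did not overlap, and vehicle tumour 2 was the highest of its group. The log2 change was 1.56 (SE 0.37, adjusted p = 0.00465), and its call was lost with quantile normalization (0.92, adjusted p = 0.0519, against 0.00105 to 0.0432 over the other alternatives), and its change was 0.94 with 1 CPM added. Fosl2, on chromosome 5, encodes FRA2, a Fos-related protein without the strong activation domain of Fos. It had 71.5, 43.2, 60.0 and 72.3 CPM in panobinostat tumours, against 43.7, 29.8, 22.2 and 27.2 CPM in vehicle tumours. Panobinostat tumour 2 and vehicle tumour 1 lay at about the same level, so the groups overlapped. Fosl2 changed by 1.02 (SE 0.23, adjusted p = 0.00372), a change that did not pass a test against 1.5-fold (adjusted p = 0.121).

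The Jun family genes went 3 ways. Junb, on chromosome 8 (84974484 to 84978718, minus strand), encodes a Jun protein with weaker activation than c-Jun. It had 43.8, 43.2, 51.2 and 31.7 CPM in panobinostat tumours, against 11.6, 12.6, 11.8 and 17.3 CPM in vehicle tumours. The groups were well apart, with vehicle tumour 4 the highest of its group. Junb changed by 1.67 (SE 0.19, adjusted p = 6.13e-05). Jun, on chromosome 4, encodes c-Jun. It had 78.8, 101, 102 and 102 CPM in panobinostat tumours, against 76.2, 78.3, 118 and 136 CPM in vehicle tumours. The panobinostat values lay within the range of the vehicle values. The log2 change of Jun was -0.05 (SE 0.20, adjusted p = 0.825) with a 95% interval of -0.50 to 0.39, and its sign depended on scaling, being 0.15 after quantile normalization and 0.07 when scaled by read totals. Jund, on chromosome 8 (70698949 to 70700616, plus strand), encodes the Jun protein that is often present without stimulation. It had 86.4, 73.0, 93.1 and 84.4 CPM in panobinostat tumours, against 136, 181, 94.7 and 168 CPM in vehicle tumours. All panobinostat values were lower, though vehicle tumour 3 came close to them. Jund fell by 0.75 on the log2 scale (SE 0.19, adjusted p = 0.00749), also with each alternative scaling (-0.53 with quantile normalization to -0.86 with median centring), but not past 1.5-fold (adjusted p = 0.451).

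Counting that ignores strand could mix reads of overlapping genes, and the strand setting is not given in the sources used here. The 3′ end of Junb overlaps the opposite-strand peroxiredoxin gene Prdx2 by 351 bases. Prdx2 had 4601 to 5661 reads in panobinostat tumours and 8680 to 13558 in vehicle tumours. It changed by -0.88 (SE 0.15, adjusted p = 7.76e-04), the opposite direction to Junb. Jun overlaps the antisense transcript Junos by 689 bases, which had 15 to 30 reads in panobinostat tumours and 14 to 21 in vehicle tumours.

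**Figure D2:**
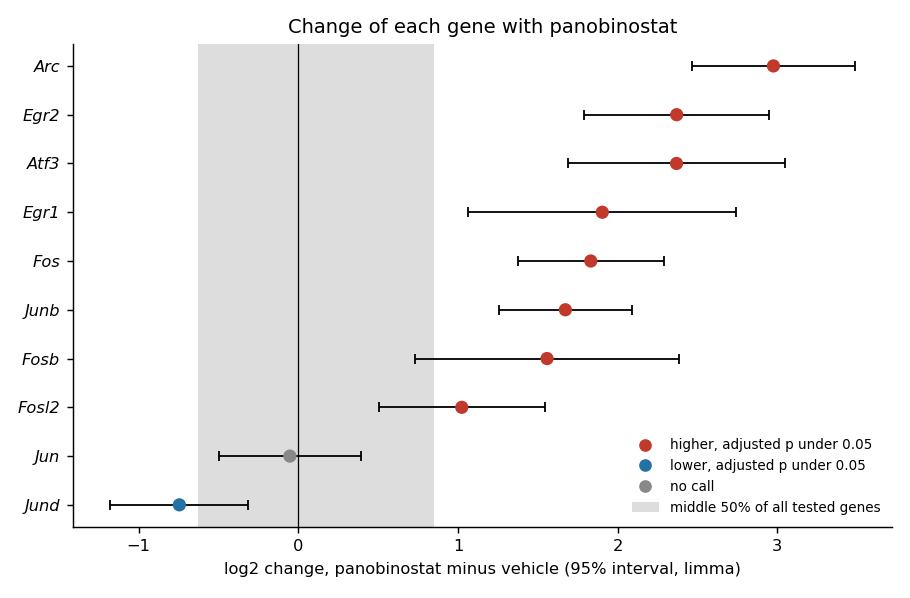
Log2 change of each gene, panobinostat minus vehicle, with its 95% interval (limma, n = 4 per group); the grey band spans the middle 50% of changes over all tested genes. Arc, Egr2 and Atf3 lie farthest right, Jun at 0 within its interval and Jund to the left.

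Per length of exon, the Jun family was the more abundant in every tumour, and its composition differed between groups. Jund was its main transcript, with 51.0 ± 3.3% of Jun family CPM per kb in panobinostat tumours and 69.1 ± 9.1% in vehicle tumours (mean ± SD, n = 4). Junb made up 18.6 ± 2.9% with panobinostat, from 14.3 to 20.2%, and 4.67 ± 0.55% with vehicle, from 3.95 to 5.19%. Summed over its genes, the Jun family stood at 94.1 to 110.2 CPM per kb in panobinostat tumours and 99.0 to 150.8 in vehicle tumours, ranges that overlap. The Fos family stood at 14.6 to 18.5 CPM per kb with panobinostat and 4.66 to 6.91 with vehicle, without overlap. Fos and Fosl2 shared nearly all of it in both groups, with Fos at 57.9 ± 9.5% in panobinostat tumours and 44.7 ± 7.7% in vehicle tumours. Fosb stayed near 3% (2.88 ± 0.37% with panobinostat, 2.92 ± 1.37% with vehicle).

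**Figure D3:**
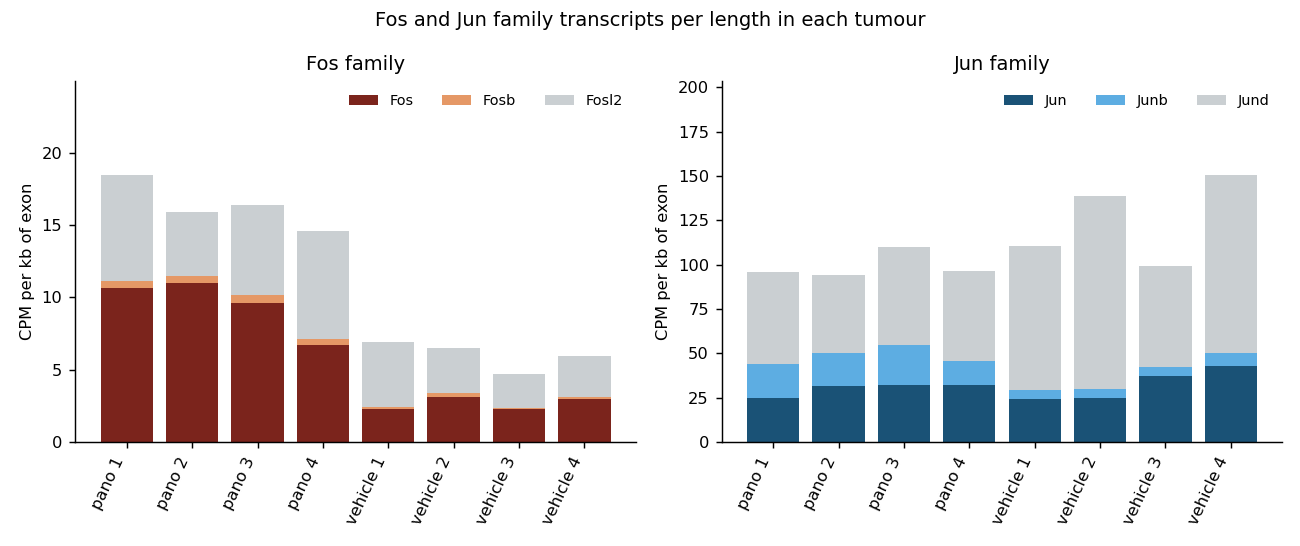
Stacked CPM per kb of exon for Fos family genes (left) and Jun family genes (right) in each tumour, panobinostat 1 to 4 before vehicle 1 to 4. The Fos family bars are taller in all panobinostat tumours, and the Junb segment of the Jun family bars is larger there, at 14.3 to 20.2% against 3.95 to 5.19%.

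Ratios between members within a library do not depend on how libraries are scaled. The log2 ratio of Junb to Jund lay between -1.41 and -0.76 in panobinostat tumours and between -3.85 and -3.00 in vehicle tumours (n = 4 each), a difference of 2.42, or 5.34-fold. The log2 ratio of Jun to Junb was 1.19 ± 0.36 with panobinostat and 2.91 ± 0.31 with vehicle, a difference of -1.73. In both ratios no panobinostat tumour overlapped a vehicle tumour. The two-sided exact permutation p was 0.0286 for each, the smallest that 70 assignments allow, and 0.1 after adjustment over 7 pairs. The other pairs were Fos/Fosb, Fos/Fosl2, Fosb/Fosl2, Jun/Jund and Egr1/Egr2, whose differences (0.27, 0.81, 0.53, 0.69 and -0.47) did not pass either, with exact p from 0.114 to 0.514. With 4 tumours a group, no pair passed after adjustment.

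Both EGR genes rose. Egr1, on chromosome 18 (34859823 to 34864984), encodes a zinc finger factor that nerve growth factor induces. It had 81.9, 73.7, 68.6 and 56.6 CPM in panobinostat tumours, against 11.0, 11.4, 37.0 and 25.8 CPM in vehicle tumours. Vehicle tumours 3 and 4 held clearly more than vehicle tumours 1 and 2, and all remained below the treated range. Egr1 averaged 6.12 ± 0.22 log2 CPM with panobinostat and 4.22 ± 0.87 with vehicle, a change of 1.90 (SE 0.37, adjusted p = 0.00169). Egr2, on chromosome 10 (67535475 to 67542188), encodes KROX20, also needed for myelination by Schwann cells. It had 177, 194, 156 and 138 reads in panobinostat tumours, against 25, 27, 48 and 38 reads in vehicle tumours. The groups were far apart, and the log2 change was 2.37 (SE 0.26, adjusted p = 5.49e-05). Schwann cell markers were called higher in 8 of 11 cases in the same comparison (31.2% of all tested genes), with sums of 216.3 to 551.0 CPM with panobinostat and 204.4 to 261.4 with vehicle, but only 1 was called higher without panobinostat tumours 3 and 4. Panobinostat tumour 1 had the lowest sum of Schwann cell markers among treated tumours, 216.3 CPM, within the vehicle range, and 7.95 CPM of Egr2. The part of Schwann cells in the Egr2 result was not tested.

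Atf3 and Arc rose as well. Atf3, on chromosome 1 (191170296 to 191218039), encodes a stress-induced factor that mostly represses as a homodimer. It had 31.9, 44.7, 43.4 and 29.6 CPM in panobinostat tumours, against 5.06, 5.22, 12.9 and 7.58 CPM in vehicle tumours. Vehicle tumour 3 was the highest control and still below every treated tumour. Atf3 changed by 2.37 (SE 0.30, adjusted p = 1.38e-04). Arc, on chromosome 15 (74669083 to 74672570), encodes a synaptic protein that regulates glutamate receptor trafficking and forms virus-like capsids. It held 105, 116, 145 and 108 reads in panobinostat tumours, against 15, 13, 19 and 15 reads in vehicle tumours. Spread was small in both groups, and Arc was the only member whose pooled within-group SD, 0.20 log2 units, was below the median of tested genes. Its log2 change of 2.98 (SE 0.23, adjusted p = 1.05e-05, 7.87-fold) was the largest of the 10 on the deposited scale. With 1 CPM added before the logarithm it was 1.96, below that of Atf3 (2.21).

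The tumours did not rank alike for every gene. Within the panobinostat group tumour 4 was the lowest for 6 of the 10 genes, namely Fos, Fosb, Junb, Egr1, Egr2 and Atf3. Tumour 4 also had the lowest sums of macrophage markers (3374 CPM) and of fibroblast and mural cell markers (8693 CPM) of its group, and the highest sums of adrenal cortex markers (2969 CPM) and of liver, pancreas and kidney markers (9871 CPM). Within the vehicle group tumour 1 was the lowest for 6 genes, namely Fosb, Jun, Junb, Egr1, Egr2 and Atf3. Vehicle tumour 1 had the highest sums of macrophage markers (1409 CPM) and of fibroblast and mural cell markers (5064 CPM) of its group. The spread of the members was high among tested genes, with 9 of 10 above the median in pooled within-group SD and Egr1 (0.64 log2 units) above 88.3% of genes.

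Transcripts that mark other cell types differed between the groups. Their counts stand beside 31.2% of all tested genes that rose and 32.4% that fell. Macrophage markers rose in 12 of 14 cases, with sums of 3374 to 5963 CPM with panobinostat and 724.2 to 1409 with vehicle. Fibroblast and mural cell markers rose in 14 of 14 cases, with 8693 to 15846 CPM with panobinostat and 1643 to 5064 with vehicle. Adipocyte markers rose in 7 of 7 cases, with a median log2 change of 3.37 and sums of 1767 to 2597 CPM with panobinostat and 73.5 to 909.6 with vehicle. No marker of the macrophage or fibroblast list was at 0 reads in any library. Neuroblast and sympathoadrenal markers fell in 9 of 14 cases, with 1599 to 2134 CPM with panobinostat and 3782 to 4536 with vehicle, and Th, Dbh and Chga, which define the tumour's lineage, were well detected in both groups. Endothelial markers rose in 4 of 11 cases, a share near the 31.2% of all tested genes (2 without panobinostat tumours 1, 2 or 3, or without 3 and 4), and their sums overlapped, at 460.9 to 701.7 CPM with panobinostat and 140.0 to 661.5 with vehicle. In bulk libraries fewer cells of a type and less RNA per cell cannot be told apart, and the part of these shifts in the rise of Fos, Junb, Egr1 and the other genes was not tested. Adrenal cortex markers summed to 42.8 to 2969 CPM with panobinostat and 9.34 to 11.5 with vehicle. The treated tumour with the least of them, number 2, had the highest Fos (25.9 CPM), Egr2 (10.1 CPM) and Atf3 (44.7 CPM) of its group. It also had the lowest Fosl2 (43.2 CPM) and Jund (73.0 CPM) of its group. Its sums of macrophage markers (5963 CPM) and Schwann cell markers (551.0 CPM) were the highest of the treated tumours. The part of adrenal tissue in these values was not tested. Without panobinostat tumours 3 and 4, which held the most reads of neighbouring organs, Fos changed by 2.05, Junb by 1.73, Egr1 by 2.06, Egr2 by 2.52 and Atf3 by 2.40 (limma, adjusted p from 7.92e-04 to 0.0113), and Fosb, Fosl2 and Jund kept their calls (adjusted p from 0.0327 to 0.0434). Arc did not pass the filter in that set and was not tested. Panobinostat tumours 1 and 2, which remained, held 736.2 and 42.8 CPM of adrenal cortex markers, above the vehicle sums. Their sums of liver, pancreas and kidney markers were 39.7 and 410.9 CPM, against 11.5 to 17.6 with vehicle. The refit therefore did not remove reads of neighbouring organs.

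Immediate early genes are known to respond to tissue handling, as heat shock genes are. Of 15 heat shock genes 5 rose and 5 fell, shares near the 31.2% and 32.4% of all tested genes, with a median log2 change of -0.04. The HSP70 genes Hspa1a (3.43, SE 0.39) and Hspa1b (3.66, SE 0.43), near-identical copies whose reads may be shared, rose, and the constitutive HSP90 gene Hsp90ab1 fell by 0.97 (SE 0.16). The others that rose, named here because of their calls, were Hspb1 (2.12, SE 0.35), Hspb8 (1.81, SE 0.39) and Dnajb4 (1.08, SE 0.22). Summed, the heat shock genes stood at 4469 to 5542 CPM with panobinostat and 6799 to 8826 CPM with vehicle. Abundant genes largely set these sums. Hsp90ab1 averaged 10.95 log2 CPM with panobinostat and 11.92 with vehicle, and Hspa1a 4.41 and 0.98. The sums therefore say little about the genes that rose. The part of handling in the rise of the immediate early genes was not tested.

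Other immediate early genes mostly rose as well. Of 36 tested, 25 rose and 3 fell, beside 31.2% and 32.4% of all tested genes. The list's median was 1.03 on the log2 scale, and 2 of the 25 had passed the filter only through panobinostat tumours. Rgs2, which encodes a brake on G protein signalling, changed by 2.45 (SE 0.20), the antiproliferative gene Btg2 by 1.51 (SE 0.13) and the stress sensor gene Gadd45b by 3.36 (SE 0.29). Of genes picked here after their values had been seen, the orphan receptor genes Nr4a1 (2.50, SE 0.27) and Nr4a3 (3.05, SE 0.28) rose, Nr4a3 having passed the filter only through the panobinostat tumours, while Nr4a2 (-0.16, SE 0.20), Npas4 (0.05, SE 0.36), which responds to neuronal activity, Per1 (0.01, SE 0.13) and Myc (0.32, SE 0.24) made no call. The 3 that fell were Ier5l (-1.21, SE 0.29), Trib1 (-0.47, SE 0.13) and the phosphatase gene Dusp1 (-0.37, SE 0.12), and 1 fell without panobinostat tumours 3 and 4. In the same comparison macrophage markers had a median of 2.18 and fibroblast and mural cell markers of 2.09.

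Egr3, Nab1 and Nab2 rose with Egr1 and Egr2. Egr3 had 28 to 49 reads in panobinostat tumours and 2 to 29 in vehicle tumours (2.23, SE 0.65, adjusted p = 0.0134), ranges that overlap, and its call was lost with quantile normalization (1.30, adjusted p = 0.0712). Egr4 did not pass the filter, at 18 to 25 reads in panobinostat tumours and 3 to 28 in vehicle tumours. The co-repressor gene Nab2 changed by 2.18 (SE 0.31, adjusted p = 2.38e-04) and Nab1 by 0.92 (SE 0.17, adjusted p = 0.00138). For the remaining AP-1 and bZIP list, 7 of its 16 tested genes made a higher call and 6 a lower one. The shares over all tested genes were 31.2% and 32.4%, and the list's median was 0.00. Atf6, an endoplasmic reticulum stress sensor, changed by 1.06 (SE 0.09) and the small Maf gene Mafk by 1.68 (SE 0.20), while its relative Mafg fell by 0.94 (SE 0.10). Fosl1, the remaining Fos family gene, made no call (-0.25, SE 0.20), and it was looked up after its value was seen.

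**Figure D4:**
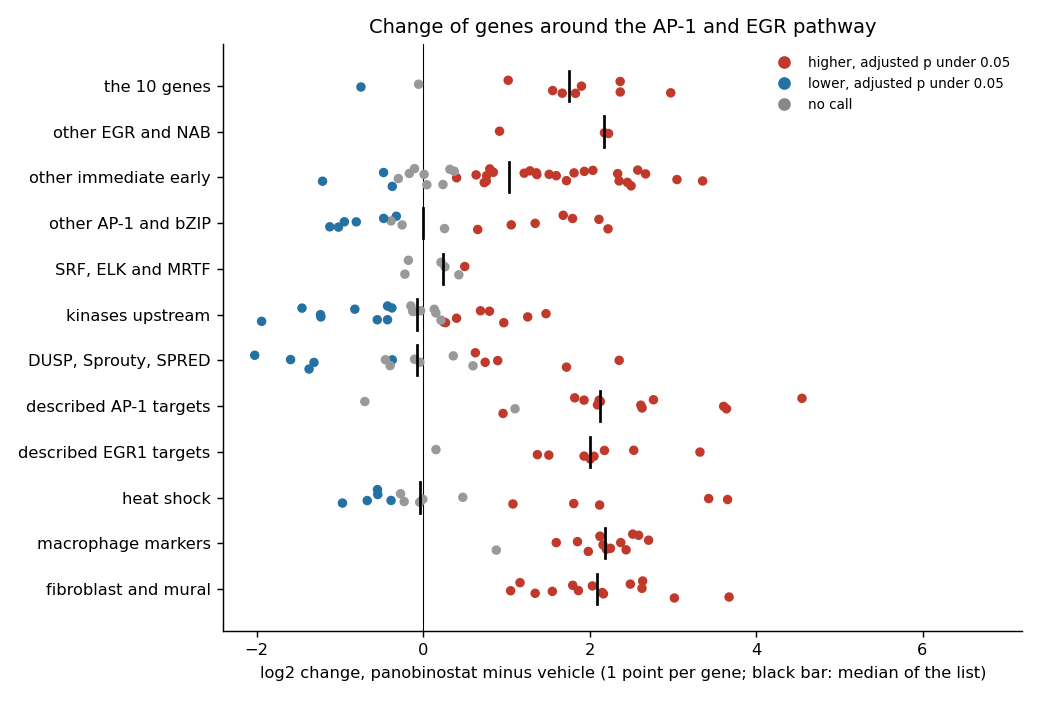
Log2 change of each tested gene, panobinostat minus vehicle, by list; points are coloured by call and black bars are list medians. The described AP-1 and EGR1 targets, macrophage markers and fibroblast markers centre near 2, and the kinase, phosphatase and heat shock lists near 0.

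Genes upstream of the group moved in both directions. Of 6 genes of serum response factor, its ELK partners and the MRTF coactivators, Mrtfa rose (0.50, SE 0.13) and 5 made no call, among them Elk1 (0.22, SE 0.11) and Mrtfb (0.26, SE 0.15). The count of higher genes was 3 without vehicle tumour 1, 2 without vehicle tumour 4 and 0 without panobinostat tumours 3 and 4, and 1 gene fell without vehicle tumour 3. Elk1 was called higher with library weights (0.29), quantile normalization (0.27), read totals (0.34) or without vehicle tumour 4 (0.27). Of 24 MAP kinase pathway and CREB kinase genes 8 rose and 9 fell, shares near the 31.2% and 32.4% of all tested genes, and 5 rose without panobinostat tumour 2, without tumours 3 and 4 together, or with median centring. Map2k7, which encodes a kinase that activates JNK, fell by 1.94 (SE 0.12), whereas Rps6ka1, which encodes the kinase RSK1, rose by 1.48 (SE 0.12). Among feedback genes, 5 of 16 rose and 5 fell, again near the shares of all tested genes, and 8 fell with quantile normalization. Dusp5, an ERK phosphatase, changed by 2.36 (SE 0.23), Dusp16 by -1.37 (SE 0.09) and the ERK pathway inhibitor gene Spred2 by -1.31 (SE 0.10).

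Genes often described as AP-1 targets rose in 12 of 14 cases, beside 31.2% of all tested genes, with a median of 2.12, and none fell, though 1 fell without vehicle tumour 3. Plau, the urokinase gene, changed by 3.61 (SE 0.28), the hyaluronan receptor gene Cd44 by 2.13 (SE 0.17) and the chemokine gene Ccl2 by 2.77 (SE 0.24). Genes often described as EGR1 targets rose in 8 of 9 cases, also beside 31.2%, with a median of 2.01, and 1 of the 8 had passed the filter only through panobinostat tumours. Ptpn6, a phosphatase gene of blood cells, changed by 2.53 (SE 0.24), Tgfb1 by 1.93 (SE 0.20) and Pdgfa by 2.05 (SE 0.22). Macrophages and fibroblasts express many genes of both lists, and their markers had medians of 2.18 and 2.09 in the same libraries, so the part of these cells in either list was not tested. Of 13 other neuronal activity genes 3 rose and 3 fell, beside 31.2% and 32.4% of all tested genes, and 5 rose without vehicle tumour 3, with library weights or with read totals. Nr4a1 rose, as given above, the activin gene Inhba, which passed the filter only through the panobinostat tumours, changed by 2.16 (SE 0.41), and the vesicle protein gene Syt4 fell by 1.02 (SE 0.12).

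Likeness of profile was measured as the root mean square difference of centred log2 CPM over the 8 tumours, as a description. Among the members, Fos and Junb were each other's nearest (0.198), as were Egr2 and Atf3 (0.225) and Jun and Jund (0.556). The 3 nearest tested genes were Itga10, Nr2f1 and Bmp6 for Fos, Zfp791, Arhgef19 and Gm15663 for Fosb, and Stap2, Ptprk and Eci1 for Fosl2. They were Map3k14, Efhd2 and Cst3 for Junb, Fem1b, Ncbp2 and Cep170b for Jun, and Mex3d, Foxp4 and Rpusd2 for Jund. They were Mroh7, Cox6b2 and Tyro3 for Egr1, Col11a1, Cfap157 and Kiss1r for Egr2, Kiss1r, Col11a1 and Etv5 for Atf3, and Rhbdl3, Rnd1 and Ttyh2 for Arc. The nearest gene lay at 0.0629 for Jun and at 0.307 for Fosb, the ends of the range.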

How the data were processed

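Whole neuroblastomas of 8 TH-MYCN mice were sequenced, 1 library per animal. Libraries came from a TruSeq kit, per the labels' protocols. CASAVA 1.8.2, TopHat2, HTSeq, limma and the build mm10 are named in the submitters' processing notes, with no role given. The sources used here do not give the annotation, filter or strand setting. The deposited table holds 1 log2 value per gene and library, log2 CPM with 0.5 reads added before scaling: whole reads were recovered for 100% of values within 0.001 read. Read totals over listed genes were 18664066 to 22235545 with panobinostat and 22055658 to 23830026 with vehicle. The deposited values were scaled to effective library sizes, on average 1.019 of the read total with panobinostat and 0.939 with vehicle. This scaling differs between the groups by 0.119 on the log2 scale. By these sizes 1 CPM is 19.3 to 22.6 reads. This depth sets the precision of low genes.

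The 16157 genes that reached 1 CPM in 4 or more libraries entered a limma 3.58.1 fit in R 4.3.3 with its moderated two-sided test, a trend of variance on level and no covariate. Benjamini-Hochberg adjustment ran over all of them, and every gene's adjusted p comes from limma. The code was tested on simulated counts. Members, gene lists and tests were chosen with earlier results of these data known. Lists are described by counts and medians, with no test of a list. Some lists share genes, so their counts are not independent. Tgfb1 is in both target lists, and Nab2 is in the EGR1 target list and the EGR and NAB list. Dusp5 is among both the other immediate early genes and the feedback genes. Symbols, coordinates and exon lengths come from GENCODE M21 (mm10), matched by identifier. Groups come from the labels, replicate numbers only name samples, and a batch that follows the groups cannot be told apart from treatment. Genes named are the members, the 3 with the smallest adjusted p of each list that is not of markers (all of the EGR and NAB list), and 3 nearest profiles per member. A gene that this rule names is not reported here. Marker lists are given by counts, sums and medians, and genes of theirs named beyond the rule, like others said to be looked up, were chosen after their values were seen. Alternatives were other filters, scalings, variance models, a pseudocount of 1 CPM, stricter calls, and leaving out libraries.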

Additional observations from a re-analysis of the deposited data

Results flagged for a closer look

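Tumours that stood apart from the other 3 of their group by Dixon's criterion were found in 5 of 94 groups of values examined, and chance alone gives about 1 in 20. Jun in panobinostat tumour 1 was at 6.30 log2 CPM, with the other treated tumours at 6.65 to 6.68. The log2 ratio of Fos to Fosl2 in vehicle tumour 1 was -3.01, with the other vehicle tumours at -2.07 to -1.97. Nab2 in panobinostat tumour 4 was at 3.80 log2 CPM, with the others at 4.22 to 4.28. Plau in panobinostat tumour 3 was at 7.13 log2 CPM, with the others at 6.62 to 6.64. Inhba in panobinostat tumour 1 was at 2.43 log2 CPM, with the others at 0.90 to 1.06.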

How the results depend on the processing

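Jun made no call in any refit, and its change ranged from -0.18 to 0.22, so its sign was not kept. No other member changed direction, and of 203 refits of the 10 members, 200 kept their side of the threshold. The exceptions were Fosb with quantile normalization (0.92, adjusted p = 0.0519, limma) and, tested against a 1.5-fold change, Fosl2 (1.02, adjusted p = 0.121) and Jund (-0.75, adjusted p = 0.451), which left 0 members lower. Leaving out each tumour in turn moved Fos between 1.75 and 1.99, Junb between 1.58 and 1.81, Egr1 between 1.65 and 2.23, and Jund between -0.94 and -0.62. With 1 CPM added before the logarithm Arc changed by 1.96 and Fosb by 0.94. Arc did not pass the filter when any 1 panobinostat tumour was left out or at 5 CPM, nor did Fosb at 5 CPM, and they were not tested there. Over all genes, 2802 rose and 2186 fell against a 1.5-fold change, and 3328 rose without panobinostat tumours 3 and 4. Of genes in the related lists 72 rose and 30 fell, and 46 and 10 did so against a 1.5-fold change. The median change of all tested genes was -0.022 as deposited, -0.139 with median centring, -0.122 after quantile normalization and 0.097 when scaled by read totals. None of the 70 recomputed ratios passed after adjustment (lowest adjusted p 0.0667, exact permutation). No paired analysis was possible because the labels give no replicate numbers that animals of both groups share. The cause of these differences was not tested. At this depth a gene near 1 CPM rests on about 20 reads, which limits Fosb, Arc, Egr3 and Egr4.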
